A study of Mus musculus with 11 samples.

Results

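The V-ATPase, cathepsin and autophagy genes were described in hippocampal tissue of mice given a chemotherapy course or saline. Members were the rows of the deposited table whose gene name begins with Atp6v, is Cts followed by a single letter, begins with Atg and a digit, or is Lamp1 or Lamp2, with a mean of at least 10 counts per library. The rule took 48 of 17118 genes and used no difference between the groups. It gave 9 genes of the V1 sector of the V-ATPase, 7 of the V0 sector, 11 cathepsins, 19 Atg genes, and Lamp1 and Lamp2. All 48 passed the low-count filter and were tested. 1 of the Atg rows, Atg4a-ps, is named as a pseudogene of Atg4a, and because the counting divides reads between near-identical sequences, the values of both are uncertain.

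The AC-T group held 5 female C57/BL6J mice, 12 weeks old when treatment began, given 8 weekly intraperitoneal injections: doxorubicin at 2 mg/kg with cyclophosphamide at 50 mg/kg in the first 4, then paclitaxel at 5 mg/kg in the last 4. The control group held 6 female C57/BL6J mice of the same age that received 8 weekly injections of saline. The titles add 1 month for every mouse without saying from when it is counted. Tissue was punched from coronal slices of frozen brain, and stranded poly(A) libraries were sequenced, 1 library per mouse. The mice carried no tumour that the labels mention.

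The lysosome is kept acidic by the vacuolar ATPase, a rotary pump in which the cytosolic V1 sector splits ATP and the membrane V0 sector carries protons. Cathepsins are the proteases that work inside the acidic lumen, and LAMP1 and LAMP2 are the main glycoproteins of the lysosomal membrane. Atg proteins build the autophagosome that delivers cytoplasm to the lysosome. Neurons also use the V-ATPase in synaptic vesicles, where the proton gradient drives the loading of transmitter.

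Each AC-T library held between 28.3 and 31.7 M counts (M, mega), and each saline library between 23.4 and 32.1 M. Mouse numbers beginning with 5 and 6 (series 5 and 6) were all AC-T, and those beginning with 2 and 3 (series 2 and 3) were all saline. No series held both treatments, so treatment and series cannot be told apart. Xist, which is made by female cells, was listed at 0 counts in saline mouse 300, against 13057 to 22963 counts in the other 10 libraries, so that library goes against its label. The punches also differed in their tissue: summed expression of 16 thalamic and habenular markers was 706 to 1035 CPM in AC-T and 1348 to 2071 CPM in saline, and that of 10 CA1 pyramidal markers was 699 to 841 CPM in AC-T and 232 to 554 CPM in saline. CPM expresses a gene's counts relative to the scaled total of its library. The 9 dentate granule markers were detected in every library, with sums of 304 to 519 CPM in AC-T and 380 to 569 CPM in saline.

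Many lysosomal genes carry the letters CACGTG, the core of the element bound by the transcription factor TFEB, near their start sites. RefSeq promoters of 300 bases (250 before and 50 after the start, build GRCm38.p6) were matched for 38 of the 48 members; Atg12, Atg16l1, Atg4a-ps, Atp6v0a2, Atp6v1b2, Atp6v1c1, Atp6v1g1, Atp6v1h, Ctsb and Ctsh had no entry. CACGTG, which reads the same on both strands, was found in 13 of the 38 members (34.2%), in 8.09% of all 27025 genes in the table and in 11.6% of the 10590 tested genes with an entry. The longer form GTCACGTG, searched on both strands and containing CACGTG, was found in 8 of the 38 members (21.1%) and in 4.6% of the tested genes with an entry. The full palindromic CLEAR element was found in 0 of the 38 members and in 0.765% of the tested genes with an entry. By family, CACGTG stood in a promoter of 1 of 5 matched V1 genes, 3 of 6 V0 genes, 4 of 9 cathepsins, 4 of 16 Atg genes, and Lamp1. These matches describe letters and are not measured binding sites.

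Whole promoters are shown for Atp6v0d1, a V0 gene that passed the test below, and Atp6v1a, the catalytic V1 gene just outside it, with CACGTG in capitals. In Atp6v0d1 the motif begins 3 bases before the start site, and in Atp6v1a 131 bases before it.
Atp6v0d1, chr8:105566015-105566314, minus strand: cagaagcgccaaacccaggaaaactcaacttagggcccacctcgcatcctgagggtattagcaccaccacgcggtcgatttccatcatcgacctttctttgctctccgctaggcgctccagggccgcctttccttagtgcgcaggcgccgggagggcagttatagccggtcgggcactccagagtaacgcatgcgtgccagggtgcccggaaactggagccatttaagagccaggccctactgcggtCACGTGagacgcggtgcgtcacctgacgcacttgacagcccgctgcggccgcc
Atp6v1a, chr16:44139210-44139509, minus strand: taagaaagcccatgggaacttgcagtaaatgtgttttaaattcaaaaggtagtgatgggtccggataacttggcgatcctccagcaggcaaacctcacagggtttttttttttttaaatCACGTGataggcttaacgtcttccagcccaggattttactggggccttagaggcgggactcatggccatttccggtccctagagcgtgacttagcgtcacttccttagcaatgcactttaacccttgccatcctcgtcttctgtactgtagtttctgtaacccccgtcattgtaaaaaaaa

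Windows of 40 bases around 1 copy of the motif are shown for 8 further genes, so that the letters beside the shared core can be compared; capitals mark that copy. Lamp1 has 4 copies, which begin 61, 45, 28 and 15 bases before its start site.
Lamp1, chr8:13159116-13159155, plus strand: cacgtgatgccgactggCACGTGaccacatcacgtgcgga
Ctsd, chr7:142387903-142387942, minus strand: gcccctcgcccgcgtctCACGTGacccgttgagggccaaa
Ctsa, chr2:164833744-164833783, plus strand: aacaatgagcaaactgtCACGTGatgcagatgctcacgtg
Ctsf, chr19:4855069-4855108, plus strand: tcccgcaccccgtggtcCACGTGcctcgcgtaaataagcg
Atp6v0b, chr4:117887343-117887382, minus strand: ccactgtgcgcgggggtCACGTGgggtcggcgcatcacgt
Atg3, chr16:45158741-45158780, plus strand: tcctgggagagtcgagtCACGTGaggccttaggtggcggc
Atg5, chr10:44268308-44268347, plus strand: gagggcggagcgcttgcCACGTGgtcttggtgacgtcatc
Atg7, chr6:114670947-114670986, plus strand: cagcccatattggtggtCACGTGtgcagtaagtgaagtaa

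The comparison of AC-T with saline asked whether these transcripts differed between the groups, which also differed in series and in tissue markers. The members that were higher in AC-T were 3 V-ATPase genes: Atp6v1g2 by 1.21-fold, Atp6v1h by 1.19-fold and Atp6v0d1 by 1.17-fold. No cathepsin, Atg gene, Lamp1 or Lamp2 passed. With series as a random effect 0 members passed, where 1.91% of all genes did, and the adjusted p was 0.140 for Atp6v1g2, 0.134 for Atp6v1h and 0.109 for Atp6v0d1. With an adjusted p under 0.05 over all 15353 genes in edgeR's quasi-likelihood test, 3 of 48 members (6.25%) passed, all higher, against a background of 8.47% of all genes (4.89% higher and 3.58% lower). The share of members that passed was thus close to the background. At an unadjusted p under 0.05, 14 members (29.2%) passed against 24.9% of all genes, 10 of them higher (background 14%) and 4 lower (background 10.9%). DESeq2 called 6 members higher and 2 lower, where it called 16.7% of all genes, and limma-voom called 3 higher and 0 lower, where it called 8.69%.

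The members did not move as 1 block. The median log2 fold change, AC-T minus saline, was 0.22 in V1 (8 of 9 positive), 0.036 in V0 (4 of 7), 0.011 in the cathepsins (6 of 11), 0.029 in the Atg genes (13 of 19) and -0.044 in Lamp1 and Lamp2 (0 of 2), beside -0.0029 over all genes tested. The median size of the change regardless of sign was 0.22 in V1 and 0.11 over all genes tested. Of the 9 V1 genes 7 had an unadjusted p under 0.05, all higher, beside 24.9% of all genes (14% higher). These 7 were each highest in AC-T mouse 502 and lowest in saline mouse 300, so they are not separate results. Atp6v1g2 was the single member whose AC-T libraries all lay above saline, as in 4.42% of all genes, and Ctsf the single member whose AC-T libraries all lay below, as in 3.1%.

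**Figure D1:**
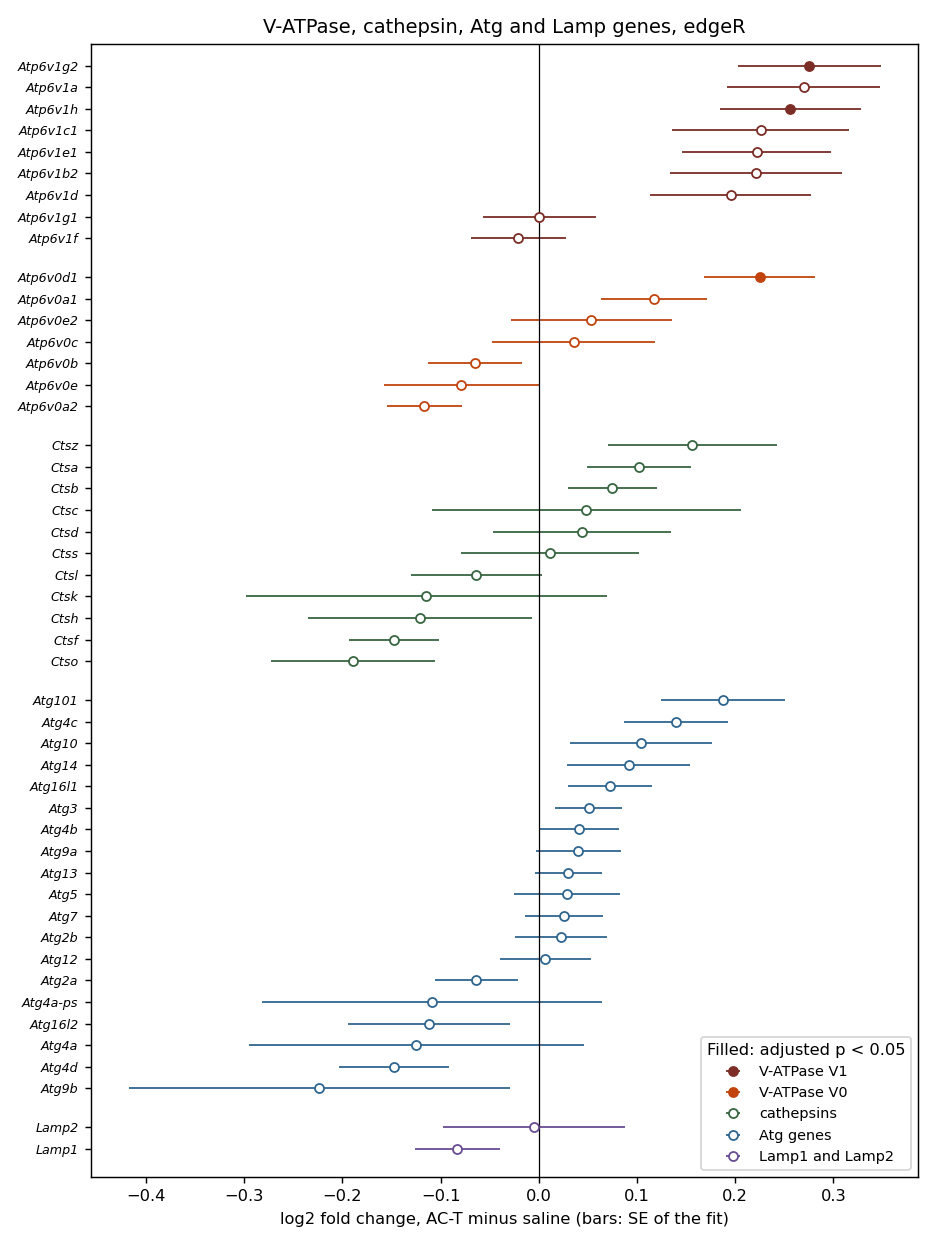
The log2 fold change of each of the 48 members, AC-T minus saline, is plotted with the SE of the fit and grouped by family; filled points have an adjusted p under 0.05. Among the V1 genes, 7 lie near 0.2 to 0.28 and Atp6v1g1 and Atp6v1f lie near 0, while the other families lie on both sides of 0 or, for Lamp1 and Lamp2, at or below it.

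Within V1, Atp6v1g2 encodes the G2 subunit of the peripheral stalk, a form of G known from neurons. Its expression was 425, 502, 445, 446 and 442 CPM in the AC-T mice and 413, 398, 364, 308, 388 and 368 CPM in the saline mice. Every AC-T library lay above every saline library, the highest being AC-T mouse 502 and the lowest saline mouse 300. The means were 452 ± 28.9 CPM in AC-T (SD, n = 5) and 373 ± 36.8 CPM in saline (SD, n = 6), a log2 fold change of 0.28 ± 0.073 (SE) with an adjusted p of 0.0389 in edgeR. The other gene for the G subunit, Atp6v1g1, is expressed in most cell types. It had 69.3, 68, 76.6, 67.1 and 63.1 CPM in AC-T against 70.4, 73.5, 69.6, 71.9, 62 and 65.6 CPM in saline, and its log2 fold change was 0.00054 ± 0.057 (adjusted p = 0.996). The groups overlapped throughout. Of the summed counts of both genes, Atp6v1g2 made up 86.8 ± 1.11% in AC-T and 84.3 ± 1.77% in saline; this share was chosen after its values were seen, was not tested, and its groups overlapped.

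Atp6v1h encodes the regulatory H subunit that couples V1 to V0. It had 135, 165, 142, 140 and 139 CPM in AC-T and 138, 127, 125, 108, 113 and 114 CPM in saline. Of the 5 AC-T libraries 4 lay above all saline libraries, and AC-T mouse 501 lay below saline mouse 201. The log2 fold change was 0.26 ± 0.071 (adjusted p = 0.0477). Rgs20 overlaps Atp6v1h and Nfkbil1 overlaps Atp6v1g2 on the opposite strand; whether counting used the strand is not given in the sources used here. Atp6v1a, the catalytic A subunit, had a similar estimate but missed the threshold (log2 fold change 0.27 ± 0.078, adjusted p = 0.0540). Its libraries held 507, 659, 541, 537 and 547 CPM in AC-T and 519, 457, 488, 400, 449 and 465 CPM in saline. Here too 4 AC-T libraries exceeded all saline libraries.

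Atp6v1b2, the nucleotide-binding B subunit found in brain, averaged 575 ± 51 CPM in AC-T and 493 ± 58.9 CPM in saline and did not pass (log2 fold change 0.22 ± 0.087, adjusted p = 0.140). The remaining V1 genes make up the stalks. Atp6v1e1, Atp6v1c1 and Atp6v1d had log2 fold changes of 0.22, 0.23 and 0.20 and adjusted p values of 0.0929, 0.145 and 0.161, and Atp6v1f had -0.021 with 0.840.

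**Figure D2:**
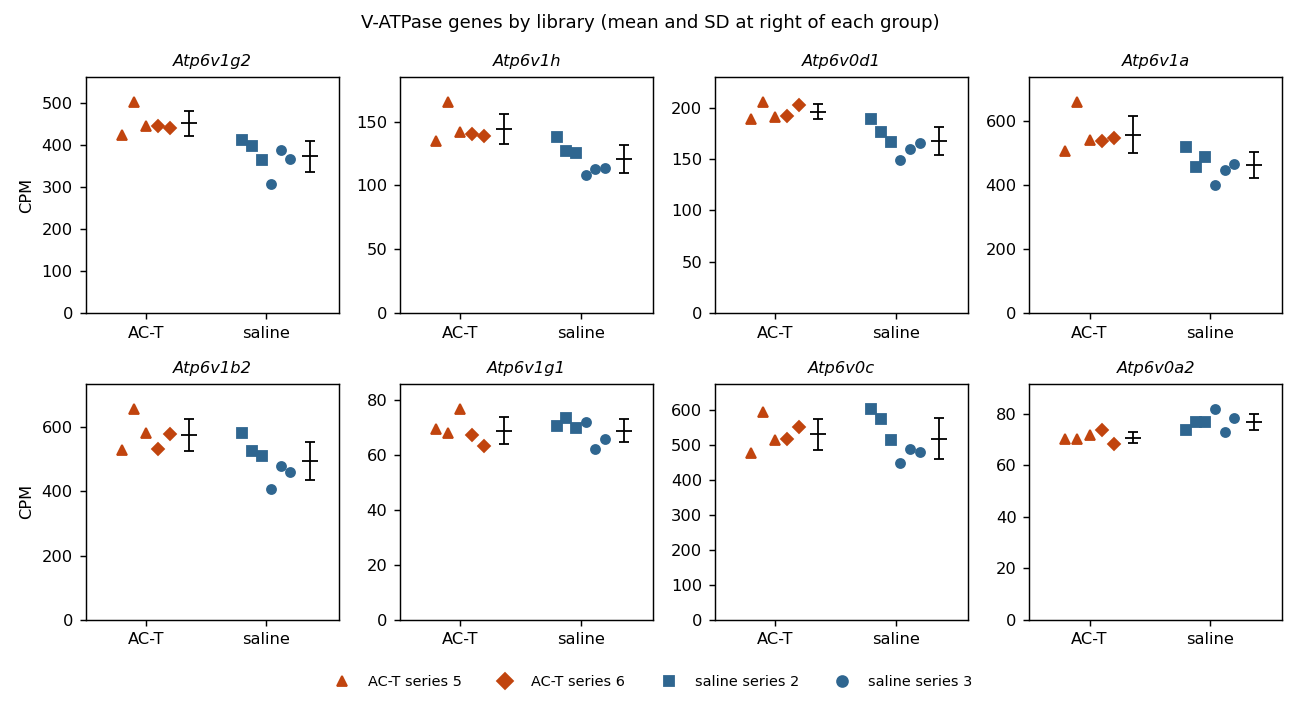
CPM of 8 V-ATPase genes is plotted by library, AC-T left and saline right, with the marker shape giving the series and the mean and SD beside each group. All AC-T libraries lie above saline for Atp6v1g2, 4 of 5 do for Atp6v1h, Atp6v0d1 and Atp6v1a, and the groups overlap for Atp6v1g1 and Atp6v0c.

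In V0, Atp6v0d1, the d subunit that joins the membrane ring to the central stalk, had 189, 205, 191, 192 and 202 CPM in AC-T and 189, 176, 166, 149, 160 and 165 CPM in saline. The lowest AC-T library and the highest saline library, mice 501 and 201, were at the same rounded value, and the other libraries were apart. Its log2 fold change was 0.23 ± 0.057 (adjusted p = 0.0328). Atp6v0c encodes the proteolipid of the proton-carrying ring, and the annotation lists pseudogene copies of it. It had 477, 595, 514, 518 and 550 CPM in AC-T against 602, 574, 514, 449, 488 and 479 CPM in saline, with full overlap and a log2 fold change of 0.036 ± 0.083 (adjusted p = 0.841).

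The a subunit of V0 anchors the pump in its membrane, and the members that encode it had estimates of opposite sign, neither of which passed. Atp6v0a1, the form of synaptic vesicles, averaged 376 ± 20.2 CPM in AC-T and 346 ± 21.9 CPM in saline (log2 fold change 0.12 ± 0.054, adjusted p = 0.201). Atp6v0a2, a form of the Golgi and endosomes, averaged 70.7 ± 2.1 CPM in AC-T and 76.7 ± 3.19 CPM in saline (log2 fold change -0.12 ± 0.038, adjusted p = 0.0810), with 4 of 5 AC-T libraries below every saline library. Tcirg1, which encodes the a3 form and whose name lies outside the rule, averaged 15.6 ± 1.72 CPM in AC-T and 17.7 ± 1.46 CPM in saline (log2 fold change -0.19 ± 0.08, adjusted p = 0.167). The remaining V0 genes, Atp6v0b, Atp6v0e and Atp6v0e2, had log2 fold changes of -0.065, -0.079 and 0.054 and adjusted p values of 0.446, 0.593 and 0.745.

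Marker sums of the cell types in the punch were set beside the V1 sum. Summed V1 expression was 2399, 2928, 2579, 2473 and 2521 CPM in AC-T and 2514, 2305, 2248, 1884, 2151 and 2134 CPM in saline. The sum of 10 pan-neuronal markers was 7236, 8480, 7963, 7226 and 7839 CPM in AC-T and 7649, 7100, 7056, 5480, 6672 and 6404 CPM in saline. AC-T mouse 502 was highest and saline mouse 300 lowest in both sums, and the groups overlapped in both. The sum of 11 oligodendrocyte markers was 8627 to 13923 CPM in AC-T and 11069 to 15565 CPM in saline. It was lowest in AC-T mouse 502 and highest in saline mouse 300. Taken as a share of the pan-neuronal sum, V1 was 33.3 ± 1.06% in AC-T (range 32.2 to 34.5%) and 32.9 ± 0.9% in saline (range 31.9 to 34.4%), so the groups overlapped on that scale. For Atp6v1g2 the same share was 5.84 ± 0.234% in AC-T (range 5.59 to 6.17%) and 5.56 ± 0.241% in saline (range 5.16 to 5.82%). It was 1.86 ± 0.0833% in AC-T and 1.8 ± 0.0922% in saline for Atp6v1h. For Atp6v0d1 it was 2.53 ± 0.115% in AC-T and 2.5 ± 0.137% in saline, and for Atp6v1a 7.2 ± 0.396% and 6.91 ± 0.332%. The groups overlapped in the share of each of these genes. These shares were chosen after the sums were seen and were not tested. Of the 10 pan-neuronal markers 8 had positive and 2 negative estimates (the lowest -0.20), and 1 passed, beside 8.47% of all genes: Syt1, a calcium sensor of synaptic vesicles, at 1259 ± 117 CPM in AC-T and 999 ± 119 CPM in saline (adjusted p = 0.0395). Of 10 astrocyte markers 8 had negative and 2 positive estimates (the highest 0.13), and 3 were lower in edgeR, beside 3.58% of all genes. Among these 3 was Slc4a4, a bicarbonate transporter, at 188 ± 20.7 CPM in AC-T and 251 ± 21.4 CPM in saline (adjusted p = 0.0121). DESeq2 called 4 lower, beside 7.71% of all genes, and limma-voom 3, beside 3.57%. The astrocyte sums overlapped, at 4423 to 6111 CPM in AC-T and 4680 to 5722 CPM in saline. Of 10 endothelial and mural markers 1 was lower in edgeR, beside 3.58% of all genes: Pecam1, an adhesion protein of endothelium. The sum of these 10 markers was 430 to 552 CPM in AC-T and 496 to 551 CPM in saline. The part of these cell types in the V1 values was not tested. In bulk tissue, more cells of a type and more RNA per cell cannot be told apart.

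**Figure D3:**
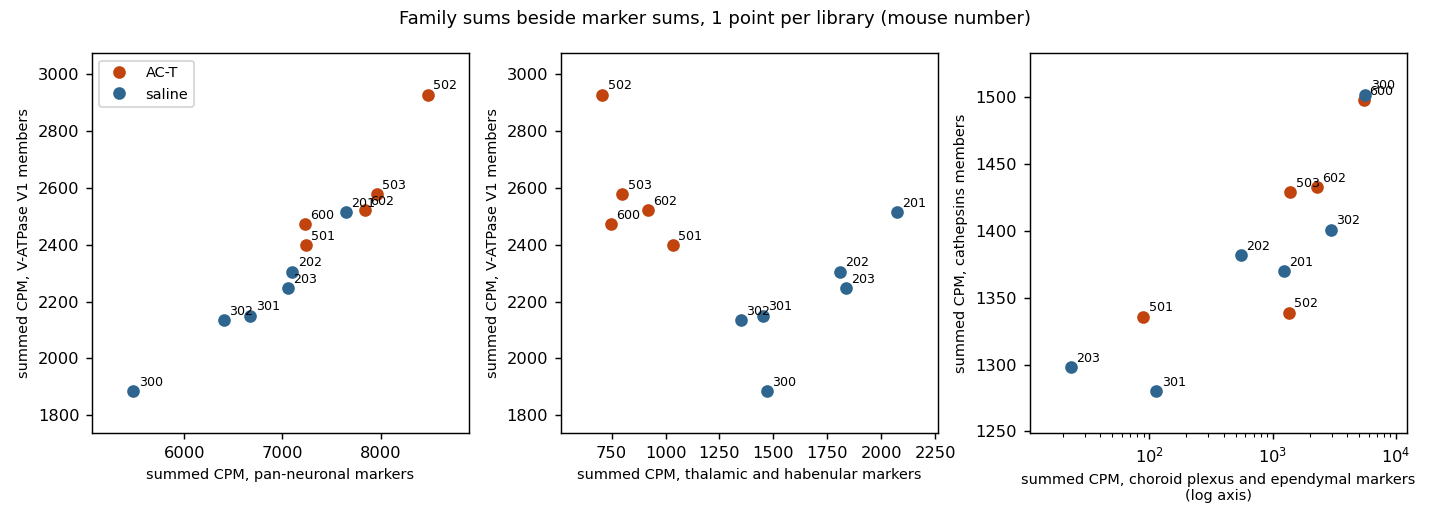
Each point is 1 library, labelled with its mouse number. The left and middle panels plot the summed CPM of the 9 V1 genes against that of pan-neuronal and of thalamic and habenular markers, and the right panel plots the summed CPM of the 11 cathepsins against that of choroid plexus and ependymal markers on a log axis. AC-T mouse 502 and saline mouse 300 are the extremes of the left panel, the treatments do not overlap in thalamic markers, and AC-T mouse 600 and saline mouse 300 are highest in the right panel.

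The AC-T libraries were also set against each saline series; both comparisons share the AC-T libraries. Against series 3, 7 members were higher (5 of V1, with Atp6v0a1 and Atp6v0d1) and 1, Ctso, was lower, where 7.25% of all genes were called; the V1 median was 0.34. Against series 2, 0 members were called by edgeR (7 of 48 had an unadjusted p under 0.05, as did 27.3% of all genes), where 11.4% of all genes were called, and the V1 median was 0.10. Between the saline series, 3 minus 2, the V1 genes were all negative with a median of -0.21, although 0 members passed (11 of 48 had an unadjusted p under 0.05, as did 20.1% of all genes) and 1.03% of all genes did. Between the AC-T series, 6 minus 5, the V1 genes were again all negative, with a median of -0.082; 0 members passed (5 of 48 had an unadjusted p under 0.05, as did 13.5% of all genes), where 0.117% of all genes did. Against series 2 and series 3, the log2 fold change was 0.20 and 0.34 for Atp6v1g2, 0.14 and 0.36 for Atp6v1h, and 0.15 and 0.31 for Atp6v0d1.

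Single libraries also decided the calls. Without AC-T mouse 502, 0 members passed, where 4.03% of all genes did, against 8.47% in the main fit. In that fit the adjusted p was 0.101 for Atp6v1g2, 0.111 for Atp6v1h and 0.0850 for Atp6v0d1. Also 0 members were called higher without AC-T mouse 600 or 602, or saline mouse 203, 301 or 302. Those fits called 2.41% to 4.48% of all genes higher. Without saline mouse 201, Atp6v1a (adjusted p = 0.0396) and Atp6v1e1 (adjusted p = 0.0298) passed with Atp6v1g2, Atp6v1h and Atp6v0d1, where 7.78% of all genes did. Without saline mouse 300, Atp6v1g2 alone passed (log2 fold change 0.22, adjusted p = 0.0441), where 5.45% of all genes did. Over the omission of each of the 11 libraries, Atp6v1g2 passed in 3 cases, Atp6v1h in 1 and Atp6v0d1 in 4, all with a positive sign. With the thalamic marker score as a covariate, 1 of all 15353 genes passed. In that fit all 3 members had an adjusted p of 0.635, with larger estimates of 0.35, 0.42 and 0.39. The score was 4.35 to 5.19 in AC-T and 5.5 to 6.37 in saline, without overlap. That fit therefore cannot separate treatment from the score, and neither its estimates nor its p values show an effect kept or lost.

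**Figure D4:**
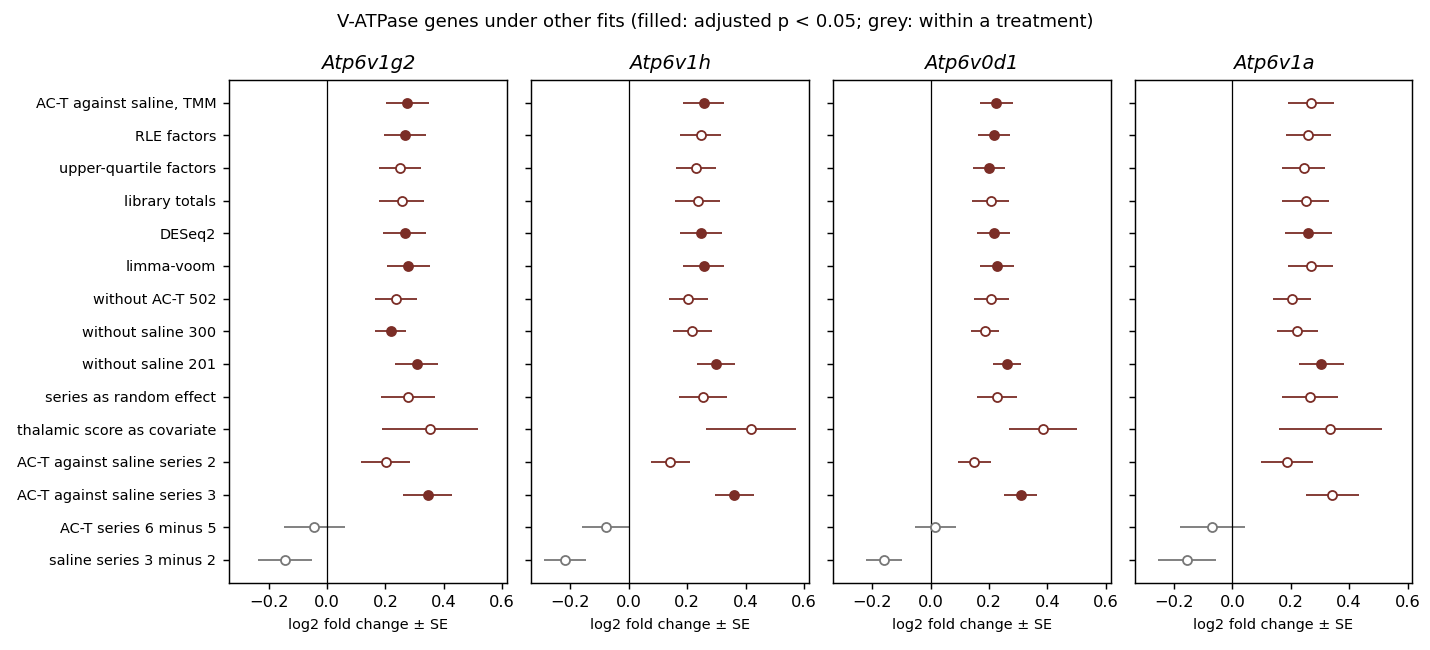
The log2 fold change with its SE is plotted for Atp6v1g2, Atp6v1h, Atp6v0d1 and Atp6v1a under other scalings, tools, omitted libraries and series contrasts; filled points have an adjusted p under 0.05 and grey points compare series within a treatment. The estimates of AC-T against saline are positive in every fit drawn, and those between saline series are negative.

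Cathepsins showed no change that passed. By edgeR 0 of 11 were called, and 2 had an unadjusted p under 0.05, beside 24.9% of all genes. DESeq2 called Ctsf alone, lower, where it called 16.7% of all genes, and limma-voom called 0. Ctsf encodes cathepsin F, a lysosomal cysteine protease whose loss in humans causes a neuronal lipofuscin storage disease. It had 46.4, 49.5, 48.8, 47.6 and 48.1 CPM in AC-T and 52.2, 57.7, 50.7, 57.4, 51.1 and 50.5 CPM in saline. The groups did not overlap, and the log2 fold change was -0.15 ± 0.046 (adjusted p = 0.0685). Ctso, cathepsin O, had 48.9, 41.5, 51.2, 41.8 and 43.8 CPM in AC-T and 44, 51.3, 46.4, 58, 54.3 and 56.6 CPM in saline, with overlap (log2 fold change -0.19 ± 0.084, adjusted p = 0.185). Saline series 3 was the higher of the saline series for this gene.

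Among the cathepsins Ctsb and Ctsd had the highest CPM. Ctsb, a cysteine protease, averaged 559 ± 23.4 CPM in AC-T and 531 ± 24 CPM in saline (log2 fold change 0.075 ± 0.045, adjusted p = 0.346). Ctsd, the main aspartic protease of the lysosome, averaged 406 ± 39.5 CPM in AC-T and 394 ± 49.6 CPM in saline (0.044 ± 0.091, adjusted p = 0.822); an annotated gene overlaps it on the same strand, and reads may be shared with it. Ctsa, which protects lysosomal glycosidases, averaged 93.9 ± 7.14 CPM in AC-T and 87.5 ± 3.81 CPM in saline (0.10 ± 0.053, adjusted p = 0.263). Ctss, an enzyme of microglia in brain, averaged 86 ± 11.7 CPM in AC-T and 85.4 ± 8.12 CPM in saline (0.011 ± 0.091, adjusted p = 0.959). It was highest in AC-T mice 503 and 501 and saline mouse 302. Of 16 microglial markers 0 passed in edgeR, with 0 at an unadjusted p under 0.05 and 0 in DESeq2, and their sum was 471 to 609 CPM in AC-T and 465 to 576 CPM in saline.

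The remaining cathepsins, Ctsc, Ctsh, Ctsk, Ctsl and Ctsz, had log2 fold changes between -0.12 and 0.16 and adjusted p values from 0.291 to 0.893. Ctsa, Ctsc, Ctsd, Ctsl and Ctsz, but not the other cathepsins, were each highest in the same library of each group. The libraries were AC-T mouse 600 (Ctsd 460 and Ctsl 105 CPM) and saline mouse 300 (Ctsd 482 and Ctsl 117 CPM). Those libraries also held the most RNA of choroid plexus and ependymal markers, 5511 CPM in AC-T mouse 600 and 5640 CPM in saline mouse 300, against 89.5 to 2293 CPM in the other AC-T mice and 23.2 to 2976 CPM in the other saline mice. The part of such tissue in the cathepsin values was not tested.

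**Figure D5:**
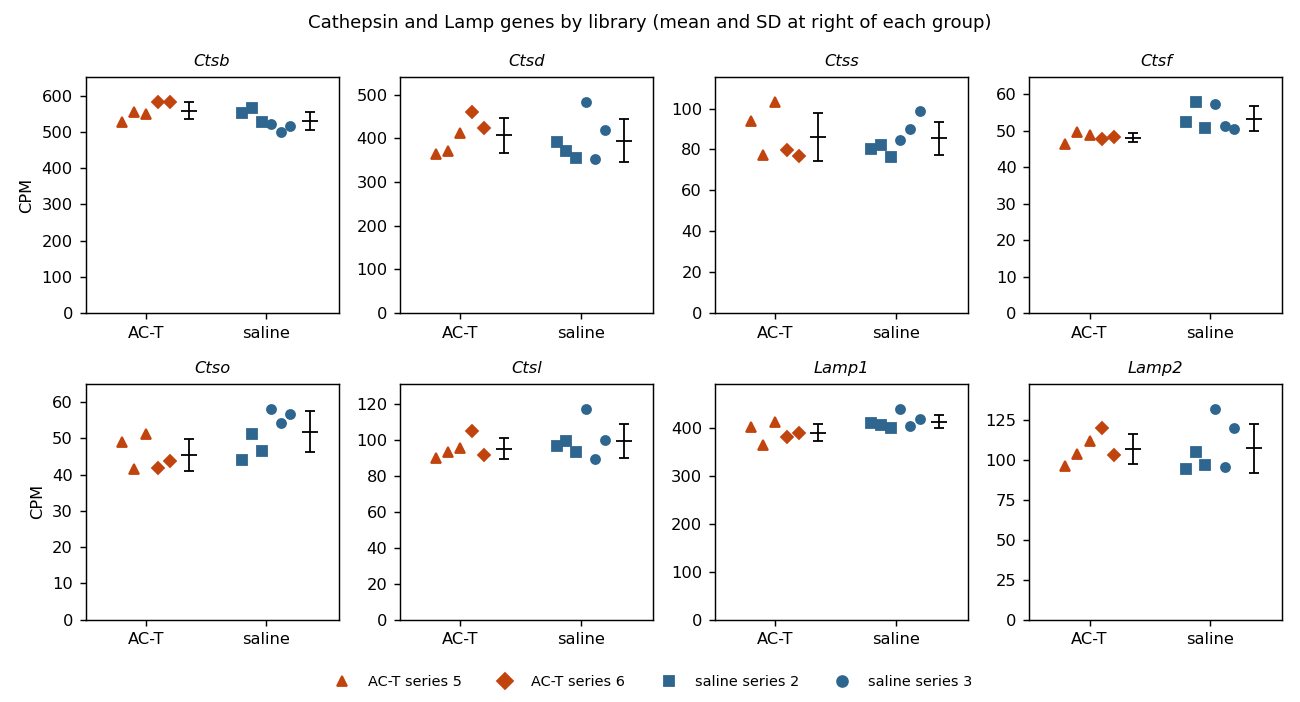
CPM of 6 cathepsins and of Lamp1 and Lamp2 is plotted by library, AC-T left and saline right, with the marker shape giving the series and the mean and SD beside each group. The groups do not overlap for Ctsf, at 46.4 to 49.5 CPM in AC-T and 50.5 to 57.7 CPM in saline, and they overlap in the other panels.

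Lamp1 had 402, 366, 414, 382 and 391 CPM in AC-T and 412, 408, 401, 440, 405 and 419 CPM in saline. AC-T mice 502, 600 and 602 lay below every saline mouse, and the difference did not pass (log2 fold change -0.083 ± 0.043, adjusted p = 0.260). Lamp2, whose splice form LAMP2A is the receptor of chaperone-mediated autophagy, had 96.1, 104, 112, 120 and 103 CPM in AC-T and 94.8, 105, 97.2, 132, 96 and 120 CPM in saline. It overlapped fully (-0.0048 ± 0.093, adjusted p = 0.983), and like Ctsd it was highest in AC-T mouse 600 and saline mouse 300.

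No Atg gene passed in edgeR, and 3 of 19 had an unadjusted p under 0.05, beside 24.9% of all genes. DESeq2 called Atg101 alone, higher, where it called 16.7% of all genes, and limma-voom called 0. Atg101 stabilises the ULK1 kinase complex that starts autophagy. It had 22.7, 28.4, 23.9, 25 and 25.4 CPM in AC-T and 24, 21.9, 22.1, 19.6, 22.6 and 22.1 CPM in saline, 3 AC-T libraries lying above all of saline (log2 fold change 0.19 ± 0.063, adjusted p = 0.0886). Atg13, another subunit of that complex, did not pass (84.6 ± 3.03 CPM in AC-T and 82.9 ± 1.89 CPM in saline, adjusted p = 0.644). The Atg4 proteases trim and recycle the ATG8 proteins: Atg4c averaged 39.1 ± 1.86 CPM in AC-T and 35.5 ± 2.47 CPM in saline (0.14 ± 0.053, adjusted p = 0.126), and Atg4d averaged 19.9 ± 1.71 CPM in AC-T and 22 ± 0.889 CPM in saline (-0.15 ± 0.056, adjusted p = 0.127). Without AC-T mouse 602, Atg4d passed as lower (log2 fold change -0.20, adjusted p = 0.0297).

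Genes of the conjugation system, which attaches ATG8 proteins to the autophagosome membrane, did not pass. Atg5 had 24.6, 27.1, 25.4, 23 and 22.3 CPM in AC-T and 23.7, 23.5, 25.8, 22.7, 24.2 and 24.1 CPM in saline (log2 fold change 0.029 ± 0.054, adjusted p = 0.800). Atg7, the activating enzyme, had 22.3, 23.7, 22.5, 22.9 and 23.1 CPM in AC-T and 23.7, 21.6, 23.6, 21.4, 22.8 and 21.8 CPM in saline (0.025 ± 0.039, adjusted p = 0.747). Atg9a, the lipid scramblase of autophagic vesicles, averaged 128 ± 5.45 CPM in AC-T and 124 ± 5.83 CPM in saline (0.040 ± 0.043, adjusted p = 0.623). The other 12 rows, Atg2a, Atg2b, Atg3, Atg4a, Atg4a-ps, Atg4b, Atg9b, Atg10, Atg12, Atg14, Atg16l1 and Atg16l2, lay between -0.22 and 0.10 on the log2 scale, with adjusted p values from 0.331 to 0.951.

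Levels were compared between genes per kilobase of the principal transcript (GENCODE vM21), and the order holds for that choice. Atp6v0c stood highest, at 449 ± 37.4 CPM per kilobase in AC-T and 438 ± 49.8 in saline, followed by Atp6v1g2 at 296 ± 18.9 in AC-T and 244 ± 24.1 in saline. Outside the V-ATPase, Lamp1 (175 ± 8.27 in AC-T and 186 ± 6.32 in saline) and Ctsd (191 ± 18.6 in AC-T and 185 ± 23.3 in saline) had overlapping ranges, and Ctsb followed at 118 ± 4.93 in AC-T and 112 ± 5.06 in saline. Among the Atg genes Atg9a stood highest, at 31.1 ± 1.33 in AC-T and 30.3 ± 1.42 in saline. With the median length of each gene's transcripts the order turns: in AC-T Atp6v1g2 (862 CPM per kilobase) stood above Atp6v0c (667), and Atg4b (128) and Atg101 (41.5) above Atg9a (32.8). Ctsl was at 15.4 CPM per kilobase in AC-T with the principal transcript and at 114 with the median length.

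Other genes of the pathway were counted over whole lists. Of 13 further V-ATPase accessory and assembly genes 1 was higher in edgeR, beside 4.89% of all genes. It was Atp6ap1l, a low-level gene at 2.26 ± 0.516 CPM in AC-T and 1.31 ± 0.206 CPM in saline (adjusted p = 0.0490). DESeq2 called 3 of this list higher and limma-voom 0, beside 8.96% and 5.12% of all genes. Of 37 other lysosomal hydrolases 1 was higher and 0 lower in edgeR, beside 4.89% and 3.58% of all genes. DESeq2 called 2 higher and 2 lower, beside 8.96% and 7.71% of all genes, and limma-voom 1 higher, beside 5.12%. The hydrolase higher in edgeR, Pld3, a lysosomal nuclease, had 409, 430, 384, 401 and 400 CPM in AC-T and 294, 291, 288, 323, 360 and 361 CPM in saline (log2 fold change 0.34 ± 0.07, adjusted p = 0.0156). All its AC-T libraries lay above saline, as in 4.42% of all genes, and it passed without any 1 of the 11 libraries.

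Of 27 lysosomal membrane and transport genes 2 were lower in edgeR, beside 3.58% of all genes. DESeq2 called 4 higher and 4 lower, beside 8.96% and 7.71% of all genes, and limma-voom 1 lower, beside 3.57%. Gpr137, a lysosomal membrane protein linked to mTORC1, had 81.2, 80.5, 89.9, 77.6 and 82.4 CPM in AC-T and 99.8, 101, 91.4, 96.9, 94.6 and 92 CPM in saline (-0.22 ± 0.045, adjusted p = 0.0154). Its AC-T libraries all lay below saline, as in 3.1% of all genes, and it passed in every omission of a library. Slc38a9, the arginine sensor of the lysosome, averaged 17.1 ± 0.798 CPM in AC-T and 19.4 ± 0.982 CPM in saline (adjusted p = 0.0420), also without overlap. Of all genes, edgeR called 4.89% higher, DESeq2 8.96% and limma-voom 5.12%. On the same libraries, each of these tools called 3 of 15 genes of the ULK1, PI3K and WIPI complexes higher. By edgeR these were Pik3c3, the lipid kinase of autophagy, at 43.2 ± 1.57 CPM in AC-T and 37.2 ± 2.84 CPM in saline (adjusted p = 0.0274), Vmp1, a membrane protein of the endoplasmic reticulum, at 107 ± 1.83 CPM in AC-T and 97.8 ± 3.13 CPM in saline (adjusted p = 0.0347), and Uvrag, a partner of that kinase complex, at 32.1 ± 1.75 CPM in AC-T and 28.2 ± 1.57 CPM in saline (adjusted p = 0.0414). For Vmp1 all AC-T libraries lay above saline, as in 4.42% of all genes. Over the omission of each library in turn, Pik3c3 passed in 4 cases of 11, Vmp1 in 3, Uvrag in 2, and Slc38a9 and Atp6ap1l in 1 each.

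By edgeR 0 of 14 ATG8 proteins and receptors passed (7 had an unadjusted p under 0.05, beside 24.9% of all genes), and DESeq2 called 5, where it called 16.7% of all genes. By edgeR 0 of 19 mTORC1 and Ragulator genes passed (5 at an unadjusted p under 0.05), and DESeq2 called 4. Among 5 cathepsin inhibitors edgeR called 0 (1 at an unadjusted p under 0.05) and DESeq2 1. Limma-voom called 0 in each of these lists, and their median log2 fold changes were 0.092, 0.036 and -0.10. The MiT/TFE factors, which bind the CACGTG element, were tested as Mitf, Tfe3 and Tfeb, whose log2 fold changes were -0.029, -0.014 and -0.021 with adjusted p values of 0.932, 0.887 and 0.917. Zkscan3, a zinc-finger repressor of autophagy genes that stood in the same list, averaged 33.4 ± 1.87 CPM in AC-T and 37.5 ± 2.03 CPM in saline (-0.17 ± 0.05, adjusted p = 0.0580 in edgeR, passing in DESeq2). Tcirg1, Syt1, Slc4a4, Pecam1, Zkscan3 and the MiT/TFE factors were named after their values were seen.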

How the data were processed

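The table deposited by the authors holds expected counts per gene (between 13.7% and 14.7% of values per library have a fraction), made with Salmon 1.9.0 per the submitters' processing notes, which also name FastQC 0.11.9, Dragen 4.3.6 and build GRCm39. The annotation release is not given in the sources used here. Expected counts, which split reads between similar sequences, were rounded. Groups come from the sample titles. R 4.3.3 ran edgeR 4.0.16 across all genes: a 2-sided quasi-likelihood F test after TMM scaling and filterByExpr (minimum count 10), keeping 15353 of 17118 genes. Benjamini-Hochberg adjustment ran over all of them, with a threshold of 0.05. The fit was tested on simulated data. Alternatives used DESeq2 1.42.0, limma 3.58.1, other scalings and filters, series as a random effect, the thalamic score as a covariate, and omission of libraries or series. A contrast of 4 series means was added after seeing the data.

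Named genes are the members past the threshold, the 3 smallest p values and 2 highest levels per family, 12 genes named whatever their values, and up to 3 called genes from each further lysosomal list. Members and lists were chosen with earlier results of these data known. With 23.4 to 32.1 M counts per library, the number of mice limits precision more than depth does for most members. Replicates are separate mice per the titles. Promoters came from RefSeq and transcript lengths from GENCODE vM21, both on GRCm38, so gene positions on GRCm39 are not given. No set test was run.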

Additional observations from a re-analysis of the deposited data

Results flagged for a closer look

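Within a group, 1 sample far from the others was looked for in 132 groups of values, and 11 were found. Chance gives about 1 in 20 for independent groups of values. These groups were not independent, since several V1 genes were high in the same mouse, so that rate cannot be set against the 11. AC-T mouse 502 stood apart in 7 of them. It was high for Atp6v1a at 659 CPM (others 507 to 547), Atp6v1d at 211 CPM (174 to 180), Atp6v1g2 at 502 CPM (425 to 446), Atp6v1h at 165 CPM (135 to 142) and Pik3c3 at 46 CPM (42.3 to 42.7). The same mouse had the highest summed CA1 markers, 841 CPM (others 699 to 738), and the lowest summed oligodendrocyte markers, 8627 CPM (others 12577 to 13923). AC-T mouse 602 was high for Atg4d at 22.8 CPM (others 18.6 to 19.6), and AC-T mouse 503 was low for Uvrag at 29 CPM (others 32.3 to 33.5). Saline mouse 201 was high for Pik3c3 at 42.9 CPM (others 35.4 to 36.4) and for Slc38a9 at 21.3 CPM (others 18.8 to 19.1).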

How the results depend on the processing

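No paired analysis was possible because the groups share no replicate numbers. Of all genes, 1301 passed; DESeq2 gave 2559, series as a random effect 293, the thalamic covariate 1, omission of saline series 2 549, of AC-T series 5 317 and of AC-T series 6 409, and the 4 series means 2074. The 3 members called higher became 1 with upper-quartile factors, 0 with library totals, 6 with DESeq2, 5 with 4 series means, and 0 with series as a random effect, the thalamic covariate, or omission of saline series 3, AC-T series 5 or AC-T series 6. The 0 called lower became 1 with upper-quartile factors (Ctsf), 2 with DESeq2 (Ctsf and Atp6v0a2) and 1 without AC-T series 6 (Atg4d). Leaving out 1 library gave 625 to 1229 genes, 0 to 5 members higher and 0 to 1 lower. The count higher was 0 without AC-T mice 502, 600 or 602 or saline mice 203, 301 or 302, 1 without AC-T mouse 503 or saline mice 202 or 300, and 5 without saline mouse 201. All genes numbered 625 without AC-T mouse 502, 681 without AC-T mouse 602, 815 without saline mouse 202 and 832 without saline mouse 300. Scaling shifted the split of higher and lower genes: 751 and 550 with TMM, 663 and 598 with RLE, 593 and 663 with upper-quartile factors, and 487 and 548 with library totals. For 31 named genes, 868 alternative values held 715 with the same call, 142 with the call lost and 10 with a call gained. In 1 the direction of a called gene turned round: Slc38a9, at 0.0084 on the log2 scale with the thalamic covariate. The cause of that change was not tested. Changes of sign in genes without a call were not counted as turned round. For example, Lamp1 and Lamp2 were both negative in the main fit, and 1 of them was positive without saline series 3.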
